A study of Mus musculus with 36 samples.

Results

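The genes of the cytosolic ribosomal proteins were followed in 3T3-L1, mouse embryo fibroblasts grown as a line and used as a model of fat cell formation. Members were the rows whose symbol is Rpl, Rps or Rplp followed by a number, with at most a final a, x or l, and whose mean over 12 RNA libraries was at least 10 FPKM (fragments scaled to gene length and to the depth of the library). Such a symbol was carried by 82 of the 52505 deposited rows, of which 75 also reached 10 FPKM, 45 of the large (60S) and 30 of the small (40S) subunit. Just inside the limit lay Rpl21 at 12.6 and Rps2 at 12.9 FPKM, and just outside it Rpl29 at 8.91 and Rpl24 at 2.17 FPKM. The other 5 matching symbols, Rpl32l, Rpl3l, Rps4l, Rpl39l and Rpl10l, averaged between 0 and 1.11 FPKM.

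The 4 groups of n = 3 libraries were cells labelled zfp217-/- (KO) and wild-type cells (WT), each at day 2 and at day 0 of an MDI treatment listing DEX, isobutyl-methylxanthine, insulin and indometacin. The labels do not tell if replicate libraries stem from separate dishes, or the KO cells from 1 clone. The p-values therefore rest on a spread between libraries that may be technical. No RNA library is labelled as untreated at day 2, so treatment and time in culture cannot be told apart. A response below is the change from day 0 to day 2. The 24 MeRIP samples of the series were not analysed here. Read totals recovered from the FPKM values were 18073746 to 23116567 per library, and a member had between 83 and 62174 reads in a library. Zfp217 was not lower in the KO libraries: it stood at 22.6 ± 0.86 FPKM in KO and 15.1 ± 0.37 FPKM in WT cells at day 2, and at 26.0 ± 0.88 FPKM in KO and 22.0 ± 0.28 FPKM in WT cells at day 0 (mean ± SD, n = 3 each), so KO and WT are used here as the labels give them. Of 8 fibroblast markers 7 were at 1 FPKM or more, and their sum was 4434 to 4631 FPKM in KO and 720 to 734 FPKM in WT libraries at day 2, and 18988 to 19588 FPKM in KO and 5615 to 5813 FPKM in WT libraries at day 0. The sum of these markers thus differed between the same groups as the members, and its part in the results below was not tested. Single markers did not all follow the sum. At day 0 the KO mean was 7.20 times the WT mean for Col3a1, 1.04 times for Thy1 and 0.071 times for Cd34. Col1a1, Pdgfra, Pdgfrb and Dlk1 were higher in KO cells at day 0. The summed adipocyte markers reached 57.9 to 61.6 FPKM in KO and 4980 to 5172 FPKM in WT libraries at day 2, and no library exceeded 5.64 FPKM at day 0. Of the endothelial, skeletal muscle, epithelial and neuronal markers none averaged 1 FPKM, and of the 5 macrophage markers 1, Cd68, did.

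Ribosomal proteins bind ribosomal RNA in the nucleolus and are exported as parts of the large and small subunits, which join on a messenger RNA to make protein. Their messages are made in great number in growing cells, and in vertebrates they typically begin with a C followed by a run of pyrimidines, the 5' terminal oligopyrimidine (TOP) motif, through which mTOR and LARP1 control their translation. Several members also have roles outside the ribosome, such as RPL5 and RPL11, which bind MDM2 and stabilise p53 when ribosome assembly is disturbed.

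RefSeq start windows (GRCm38.p6) were matched for 55 of the 75 members. A C followed by at least 5 pyrimidines, beginning within 5 bases of the annotated start on the gene's strand, was present in 25 of them (45.5%), against 11.9% of the 27025 genes with a window. The motif CCGGAAG, the core bound by ETS-family factors, was on either strand of the window from 250 bases before to 50 bases after the start in 41.8% of the members with a window, against 9.93% of all genes. The start windows below, from 10 bases before the annotated start, carry the tract in capitals. The first 3 belong to the members with a tract that were lowest in KO cells at day 0, Rps6 encodes the classical substrate of S6 kinase, and Rpl38, Rps27 and Rpl12 did not pass the test at day 0.
Rpl7a, chr2:26910797-26910826, plus strand: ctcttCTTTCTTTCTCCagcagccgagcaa
Rpl34, chr3:130730379-130730408, minus strand: tccctgacgtaCTTCCTgtccggcgccgtc
Rps18, chr17:33955646-33955675, minus strand: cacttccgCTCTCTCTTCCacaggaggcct
Rps6, chr4:86857348-86857377, minus strand: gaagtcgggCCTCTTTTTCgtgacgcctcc
Rpl38, chr11:114668570-114668599, plus strand: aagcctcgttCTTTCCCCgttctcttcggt
Rps27, chr3:90213629-90213658, minus strand: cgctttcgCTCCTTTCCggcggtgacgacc
Rpl12, chr2:32961702-32961731, plus strand: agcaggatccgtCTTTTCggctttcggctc
A tract is thus present both in members that were lower and in members that did not pass the test. A match is a description of these letters at an annotated start and says nothing about use of that start in these cells.

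The members were among the most abundant messages, with a median of 911 FPKM over the 12 libraries, 34 above 1000 FPKM and 8 below 100 FPKM. The highest means were those of Rplp1 (3862 FPKM), Rpl41 (3042 FPKM), Rplp0 (2588 FPKM), Rpl39 (2108 FPKM) and Rps21 (1953 FPKM). Rplp0 and Rplp1 form the acidic stalk that recruits elongation factors, Rpl41 is the shortest ribosomal protein, and Rpl39 lies at the wall of the peptide exit tunnel. The lowest were Rpl21 (12.6 FPKM), Rps2 (12.9 FPKM), Rpl34 (25.1 FPKM), Rpl6l (29.7 FPKM) and Rpl23a (41.2 FPKM). For Rpl21, Rps2, Rpl34 and Rpl23a most of the signal was listed under pseudogene names, as described further on.

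**Figure D1:**
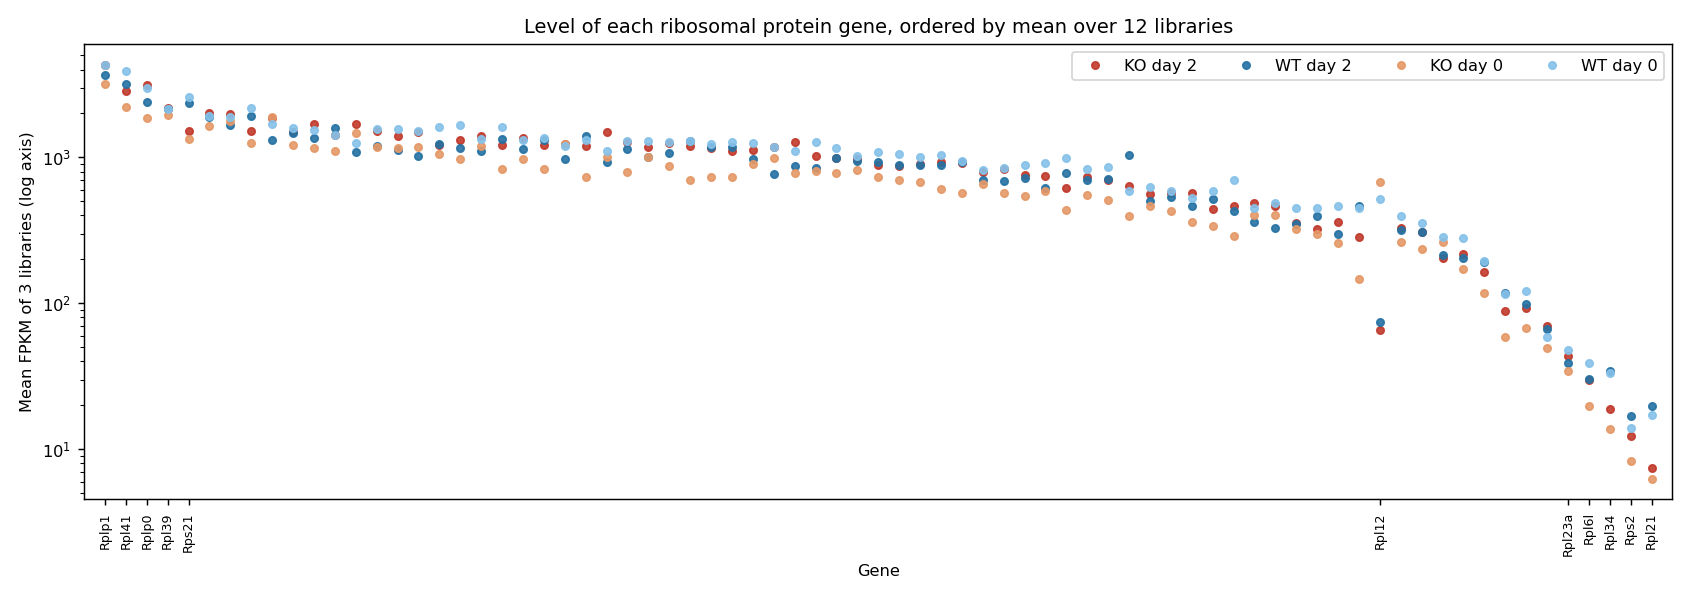
Mean FPKM of each of the 75 members in KO and WT cells at day 2 and day 0 (n = 3 libraries a group; log axis), ordered from left to right by the mean over 12 libraries, with the 5 highest, the 5 lowest and Rpl12 named. Values run from 3862 FPKM for Rplp1 down to 12.6 FPKM for Rpl21, and KO day 0 is the lowest group for 62 members. The share of all genes with KO day 0 as the lowest group was not counted. Rpl12 has its 2 day 2 means far below its day 0 means. Its WT day 0 mean is raised by 1 library, at 1372 FPKM against 89.3 and 86.2 FPKM in the others.

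Summed over the 75 members, the level was lowest in KO cells at day 0. The summed FPKM was 72478, 71411 and 79068 in the KO libraries and 71077, 68908 and 67284 in the WT libraries at day 2. At day 0 it was 56755, 58010 and 58033 in the KO libraries and 82197, 80645 and 81422 in the WT libraries. The genotypes were far apart at day 0, while at day 2 every KO library lay above every WT library by a small margin. At day 0 the KO mean was lower by 29.3% (57599 ± 732 in KO, 81421 ± 776 in WT), and at day 2 it was higher by 7.57% (74319 ± 4147 in KO, 69090 ± 1903 in WT; SD, n = 3). With quantile normalization the day 2 difference was 0.97%. The day 2 sums of KO and WT libraries overlapped with quantile normalization and with median-of-ratios scaling. From day 0 to day 2 the sum changed by 29.03% in KO cells and by -15.1% in WT cells, against 14.1% in KO cells with quantile normalization and -9.06% in WT cells with median-of-ratios scaling. As a share of all summed FPKM the members took 11.1 ± 0.48% in KO and 10.0 ± 0.19% in WT cells at day 2, and 8.86 ± 0.11% in KO and 11.6 ± 0.13% in WT cells at day 0. These are bulk libraries, in which fewer cells of a type and less RNA per cell cannot be told apart.

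**Figure D2:**
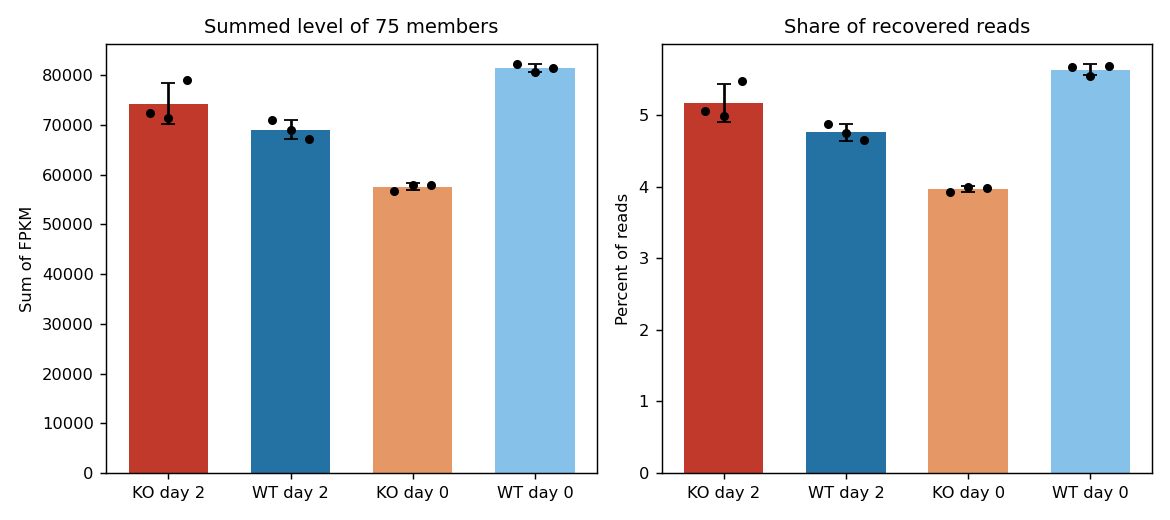
Summed FPKM of the 75 members (left) and their share of recovered reads in percent (right) in each library; bars are group means, error bars the SD of 3 libraries and points the libraries. The KO day 0 libraries, at 56755 to 58033 summed FPKM, lie below every library of the other 3 groups.

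Large and small subunit genes differed between the genotypes by similar amounts. The sum over the 45 large subunit genes was 28.7% lower and that over the 30 small subunit genes 30.1% lower in KO than in WT cells at day 0. At day 2 they were 7.91% and 6.97% higher in KO cells. The ratio of the large to the small subunit sum was 1.74 ± 0.04 in KO and 1.72 ± 0.01 in WT cells at day 2, and 1.64 ± 0.01 in KO and 1.61 ± 0.02 in WT cells at day 0 (SD, n = 3). In both genotypes the ratio was higher in every day 2 library than in every day 0 library. From day 0 to day 2 the large subunit sum changed by 31.7% and the small by 24.6% in KO cells. In WT cells these changes were -13.0% and -18.6%.

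At day 0, nearly every ribosomal protein message was lower in KO cells. Of the 75 members 66 were lower in KO than in WT cells and 1 was higher, at an adjusted p under 0.05 in limma across 12961 genes. Of all genes tested 44.2% were lower and 38.3% higher, 82.4% in either direction. The median log2 change of FPKM + 1 was -0.57 over the members and -0.06 over all genes. The interquartile range was 0.38 for the members and 1.01 for all genes, so the members formed a narrow band on the lower side. The median was -0.44 for the 34 members above 1000 FPKM, -0.58 for the 33 between 100 and 1000 FPKM and -0.89 for the 8 below 100 FPKM.

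The falls with the largest size at day 0 were those of Rpl7a, Rps27a, Rpl21 and Rpl34, all of which had over 10% of their combined signal in pseudogene rows. The next was Rpl32, a large subunit protein gene with no signal in such rows, picked here after its values were seen. It had 425, 439 and 438 FPKM in KO and 1011, 948 and 999 FPKM in WT libraries. Every KO library was far below every WT library, and the change was -1.18 (SE 0.04, adjusted p = 5.97e-11, limma). Rpl7a, which makes a protein of the large subunit, had 147, 186 and 108 FPKM in KO and 491, 456 and 408 FPKM in WT libraries, a change of -1.64 (SE 0.24, adjusted p = 4.16e-05). Its groups did not overlap, although the KO libraries differed by up to 1.71 times. Rps27a, which encodes ubiquitin fused to a small subunit protein, had 220, 422 and 232 FPKM in KO and 686, 584 and 839 FPKM in WT libraries, a change of -1.32 (SE 0.34, adjusted p = 0.00319). These groups did not overlap either. The pseudogene row Rps27a-ps2 had 394, 136 and 433 FPKM in KO and 358, 433 and 100 FPKM in WT libraries. With its pseudogene rows the highest KO library of Rps27a was 1.19 times the lowest, against 1.92 times without them. The size of this fall in the gene's own row is therefore uncertain. Rpl21 (-1.31) and Rpl34 (-1.22) fell in all 3 KO libraries, and both were among the lowest members in level. With their pseudogene rows added the changes were -0.73 for Rpl21 and -0.31 for Rpl34.

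Of the members with set roles outside or inside the ribosome, most were lower in KO cells at day 0, by different amounts. The stalk gene Rplp0 had 1829, 1879 and 1855 FPKM in KO and 3039, 2940 and 2953 FPKM in WT libraries, a change of -0.68 (SE 0.02). Its partners Rplp2 and Rplp1 changed by -0.84 and -0.45, with no overlap of the groups. The p53-linked Rpl5 and Rpl11 changed by -0.76 and -0.74, and Rps6, the S6 kinase substrate, by -0.79. Rps26 and Rps19, whose human counterparts are mutated in Diamond-Blackfan anaemia, changed by -0.78 and -0.44, and Rps15, close to the decoding site of the small subunit, by -0.36. Rpl22, Rpl26 and Rpl3 changed by -0.47, -0.44 and -0.53, and the X-linked Rps4x and Rpl10 by -0.42 and -0.35. The smallest of these falls was that of Rpl13a (-0.25), a gene often used as a reference in quantitative PCR, which lost its call with TPM scaling (adjusted p = 0.0821) and with quantile normalization (adjusted p = 0.134). Quantile normalization also ended the call of Rpl10 at day 0, with a change of -0.066 (adjusted p = 0.107). The paralogue Rps27l fell by 0.57.

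The 8 members that did not pass were Rps2, Rpl19, Rpl39, Rps28, Rpl17, Rpl38, Rps27 and Rpl12. Rps27 had 1915, 1768 and 1958 FPKM in KO and 1689, 1457 and 1907 FPKM in WT libraries, and Rpl38, for which mouse mutants show altered Hox messages being translated, had 1127, 1266 and 1323 FPKM in KO and 1216, 1240 and 1155 FPKM in WT libraries. In both the groups overlap, with changes of 0.17 for Rps27 (SE 0.10, adjusted p = 0.16) and 0.04 for Rpl38 (SE 0.09, adjusted p = 0.709). Without the third WT day 0 library the change of Rps27 was 0.26 (adjusted p = 0.0368), and with quantile normalization that of Rpl38 was 0.30 (adjusted p = 0.00587).

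**Figure D3:**
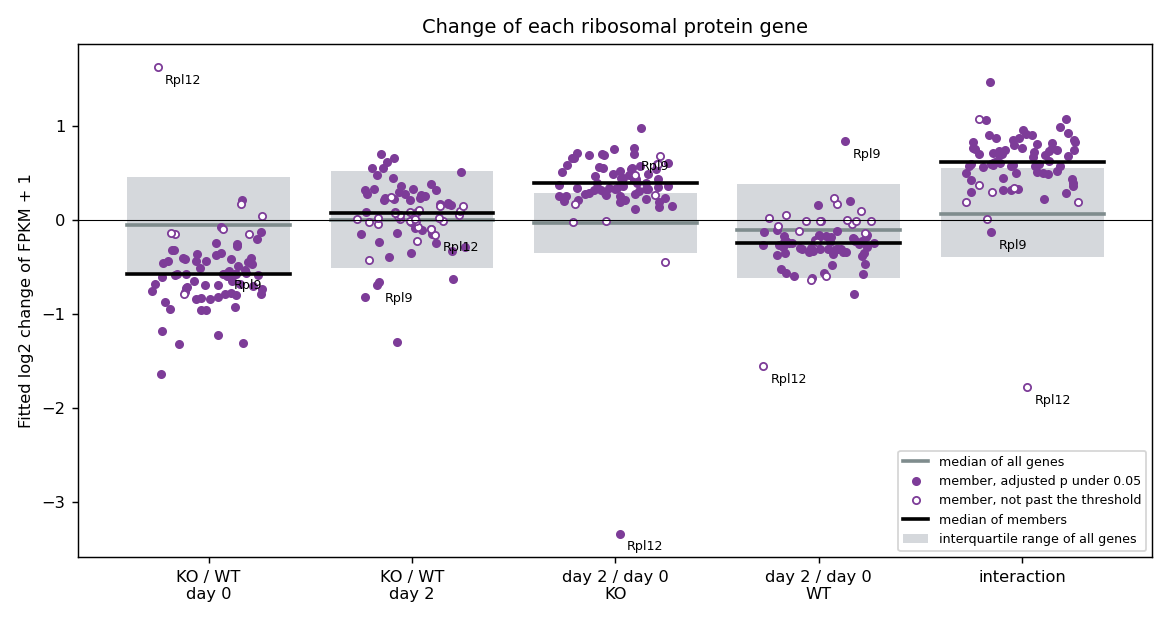
Fitted log2 change of FPKM + 1 of each of the 75 members in 4 comparisons and the interaction (purple points; filled where the adjusted p is under 0.05), with the median of the members (black line) and the median and interquartile range of all 12961 genes (grey line and bar). The members sit below the median of all genes at day 0 (-0.57 against -0.06) and above it in the KO response (0.39 against -0.03), and Rpl12 and Rpl9 are marked.

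At day 2 the members were split between the genotypes. Of the 75, 30 were higher and 17 lower in KO than in WT cells, and 28 did not pass, beside 40.8% of all genes higher and 40.6% lower, 81.4% in either direction. The median change was 0.07 over the members and 0.00 over all genes, and it was 0.01 without the third KO day 2 library, which had the highest summed level of its group. With TPM scaling the split was 34 higher and 12 lower. The 34 members above 1000 FPKM held 20 of the higher and 9 of the lower calls, and the 8 below 100 FPKM held none of the higher and 3 of the lower.

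Rpl13, of the large subunit, had the largest called rise at day 2. It had 1499, 1447 and 1544 FPKM in KO and 938, 909 and 927 FPKM in WT libraries, a change of 0.69 (SE 0.03, adjusted p = 2.87e-10). Every KO library lay far above every WT library. Rises were also called for Rpl30 (0.62) and for Rpl10 (0.55), whose protein joins the large subunit late in its assembly. Rps27 rose by 0.50 and Rplp0 by 0.38.

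The members that stayed lower at both days were 17, among them Rpl9, Rpl32, Rps21, Rpl18, Rplp2 and Rps6. Lower calls were 44.2% of all genes at day 0 and 40.6% at day 2, and the share lower at both was not counted. Rpl9 had 621, 619 and 683 FPKM in KO and 1070, 1028 and 1024 FPKM in WT libraries at day 2, and the change was -0.70 (SE 0.04, adjusted p = 2.28e-09). The groups did not overlap. Rps21, of the small subunit, had 1538, 1440 and 1601 FPKM in KO and 2518, 2399 and 2156 FPKM in WT libraries at day 2, and fell by 0.63. Rpl21 fell by 1.30 and Rpl34 by 0.83, and with its pseudogene rows Rpl34 was at 0.02 (adjusted p = 0.804). Rpl7a fell by 0.66 (adjusted p = 0.0222) with overlapping groups, and leaving out the first or second WT or the second KO library of day 2 raised its adjusted p to between 0.0549 and 0.102. Rps6 fell by 0.08 and Rps27l by 0.29, and the Rps6 call was lost without the second WT or the first or second KO library of day 2, at adjusted p of 0.06 to 0.132. With TPM scaling Rps6 was at -0.039 (adjusted p = 0.265), and with quantile normalization Rps27l was at -0.058 (adjusted p = 0.119). Rpl5, Rpl11, Rpl22, Rpl39 and Rps19 did not pass at day 2, with changes of -0.02, -0.02, 0.01, 0.04 and 0.08. Rps19 did pass with TPM scaling (0.13, adjusted p = 0.00438), with quantile normalization (0.28, adjusted p = 1e-05), with its pseudogene rows (0.12, adjusted p = 0.0124) and without the first WT library of day 0 or the second WT or KO library of day 2 (adjusted p of 0.0225 to 0.0483). With quantile normalization Rpl5 (0.12, adjusted p = 0.000599), Rpl11 (-0.16, adjusted p = 0.000444) and Rpl22 (0.24, adjusted p = 1.28e-05) passed as well.

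In KO cells the level went up from day 0 to day 2. Between day 2 and day 0, 66 members were higher and 1 lower at day 2, beside 33.9% of all genes higher and 38.8% lower, 72.7% in either direction. The median change was 0.39 over the members and -0.03 over all genes. With quantile normalization 47 members were higher and 2 lower. Rplp0 had 3164, 3042 and 3173 FPKM at day 2 and 1829, 1879 and 1855 FPKM at day 0, a change of 0.75 (SE 0.02, adjusted p = 6.79e-11). Rpl18 had 1199, 1166 and 1210 FPKM at day 2 and 685, 724 and 699 FPKM at day 0, a change of 0.76 (SE 0.04). In neither gene did the days overlap. Rpl27a rose by 0.71, Rplp2 by 0.70 and Rpl7a by 0.97 (SE 0.24). The smallest rise among the named members was that of Rps27l (0.11), which quantile normalization brought to 0.057 (adjusted p = 0.137). Rps27, Rpl38 and Rpl39 did not pass, with changes of -0.02, -0.02 and 0.17. The member called lower was Rpl12, described below.

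In WT cells the level went down. There, 53 members were lower at day 2 than at day 0 and 3 higher, beside 46.5% of all genes lower and 34.2% higher, 80.7% in either direction. The median was -0.25 over the members and -0.11 over all genes. With quantile normalization the split was 42 lower and 8 higher. Rpl10 had 1016, 1021 and 1015 FPKM at day 2 and 1506, 1515 and 1502 FPKM at day 0, a change of -0.57 (SE 0.02, adjusted p = 5.9e-11). Rpl30 fell by 0.62, Rps23, at the decoding centre, by 0.59 and Rpl14 by 0.57, with no overlap of the days in any of the 3. Rps27a fell by 0.79 (SE 0.34, adjusted p = 0.0477), and the call ended, at adjusted p of 0.0501 to 0.201, without WT library 2 or 3 of day 2, WT library 1 or 3 of day 0, KO library 2 of day 2, or KO library 1 or 3 of day 0. Without any 1 of the WT libraries of day 2, or the third WT library of day 0, the rise of Rpl27 (0.15) was also lost, at adjusted p of 0.0558 to 0.145.

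Rpl9 was the member with the largest called rise in WT cells. It had 1070, 1028 and 1024 FPKM at day 2 and 591, 588 and 573 FPKM at day 0 in WT cells, and rose by 0.83 (SE 0.04, adjusted p = 4.17e-10). In KO cells it had 621, 619 and 683 FPKM at day 2 and 394, 391 and 398 FPKM at day 0, a rise of 0.70. Day 2 and day 0 did not overlap in either genotype. Rpl9, Rpl21 and Rpl27 were the 3 members that rose in both genotypes, while 50 of the 75 fell in WT and rose in KO cells. Among all genes 34.2% rose and 46.5% fell in WT cells, and 33.9% rose in KO cells. The shares of all genes with both calls were not counted. With its pseudogene rows Rpl21 was at -0.12 in the WT response (adjusted p = 0.0379).

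The difference between the responses was tested directly by the interaction, the KO response minus the WT response. It was positive and past the threshold in 66 members and negative in 1, Rpl9 (-0.13, adjusted p = 0.0294), with 40.8% of all genes called positive and 33.0% negative, 73.8% in either direction. The call of Rpl9 ended, at adjusted p of 0.0603 to 0.0719, without the first or second KO or the first WT library of day 2, or the third KO or WT library of day 0. That call also ended without the minimum of 1 FPKM (adjusted p = 0.0703) and with no variance trend (adjusted p = 0.0511). With its pseudogene rows Rpl9 was at -0.068 (adjusted p = 0.214). The median was 0.61 over the members and 0.06 over all genes. The highest called values were Rps27a at 1.47 (SE 0.47, adjusted p = 0.0149), Rplp0 at 1.07 (SE 0.03), Rpl27a at 1.06 (SE 0.04) and Rpl7a at 0.98 (SE 0.34). Rpl12, Rpl21, Rpl39, Rpl17, Rpl38, Rps27, Rps2 and Rps12 did not pass. Rps27 (0.34, adjusted p = 0.0576) passed without the second WT library of day 0, the first WT or the second KO library of day 2 (adjusted p of 0.0133 to 0.0432), with a minimum of 5 FPKM (adjusted p = 0.0491) and with voom (adjusted p = 0.0478). Rpl38 (0.29, adjusted p = 0.0635) passed without the first WT or second KO library of day 2 or the third KO library of day 0 (adjusted p of 0.0202 to 0.0479). Because the comparisons share groups, 25 members that were lower at day 0 and higher at day 2 in KO cells are a count of calls and not an independent observation. Over all genes 44.2% were lower at day 0 and 40.8% higher at day 2, and the share with both calls was not counted.

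Rpl12 was the member whose libraries did not follow their group. The gene, which encodes a large subunit protein at the base of the stalk, had 65.2, 66.3 and 66.5 FPKM in KO and 73.0, 72.8 and 76.4 FPKM in WT libraries at day 2. At day 0 it had 679, 680 and 678 FPKM in KO libraries, and 89.3, 86.2 and 1372 FPKM in WT libraries. The third WT library was thus 15.9 times the second, while the highest KO library was 1.00 times the lowest. The change at day 0 was 1.62 (SE 0.79, adjusted p = 0.0768), and without the third WT library it was 2.94 (adjusted p = 6.49e-14). In the KO response the difference was -3.34 (SE 0.79, adjusted p = 0.00244), and in the WT response the change was -1.56 (adjusted p = 0.0891) with that library and -0.24 (adjusted p = 7.62e-06) without it. Among the other members the highest ratio of that library to the higher of the other WT day 0 libraries was 1.22.

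The same library pattern was present in other genes, picked after their values were seen. Among genes averaging 1 FPKM or more, 22 were at least 4-fold higher (on the scale of FPKM + 1) in the third WT day 0 library than in the other 2, and 18 of them were also over 2 times higher in every KO day 0 library than in those 2. The 22 include Rpl12 itself, the ribosomal RNA rows mt-Rnr1 and mt-Rnr2 and genes named for ribosomal RNA processing. All 8 genes named Rrp with a number that had at least 1 FPKM were 3.96 to 16.8 times higher in the third WT day 0 library than in the others, and higher in every KO day 0 library than in those. Whether the values of Rpl12 differ through the message or through a step of library making or read processing shared with these genes was not tested, so its differences between groups are given as values and not as changes of the gene. No other member showed this step, and without Rpl12 the summed level was 29.6% lower in KO cells at day 0 and 7.59% higher at day 2.

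**Figure D4:**
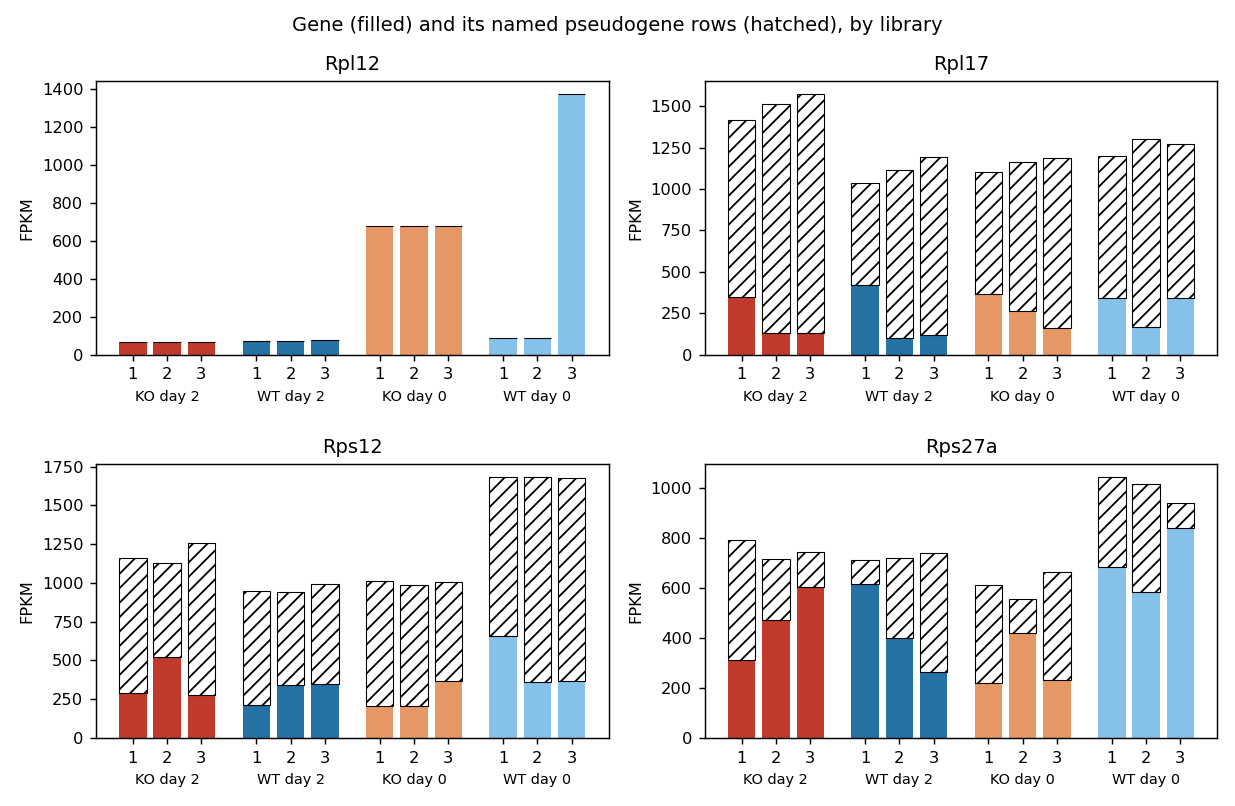
FPKM of Rpl12, Rpl17, Rps12 and Rps27a (filled bars) with their named pseudogene rows stacked on top (hatched) in the 3 libraries of each group. Rpl12 stands at 1372 FPKM in the third WT day 0 library and at 89.3 and 86.2 FPKM in the others, while for Rpl17, Rps12 and Rps27a the stacked heights differ less between libraries than the filled bars.

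Part of the signal of many members was listed under pseudogenes. The table holds 273 rows named as pseudogenes of 56 members, and 20 members had over 10% and 10 over 50% of their combined FPKM in such rows. Rps2 was at 99.5%, Rpl34 at 98.7%, Rpl21 at 87.9%, Rpl17 at 80.8%, Rpl23a at 75.2%, Rps12 at 71.4%, Rpl35a at 69.4%, Rpl3 at 59.2%, Rps18 at 54.2% and Rps19 at 51.3%. The row Rps2-ps13 alone averaged 2509 FPKM, against 12.9 FPKM for Rps2. Reads of a gene and of its near-identical copies cannot be told apart in these values, so the levels of these members in their own rows are uncertain.

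Of the 75 members 6 had a range over 0.8 log2 units within some group (8.0%), against 107 of 7992 genes of at least 10 FPKM (1.34%). They are Rpl12, Rpl17, Rps2, Rps27a, Rpl7a and Rps12, of which Rpl17 and Rps12 are described here because of that range. Rpl17, of the large subunit, had 420, 102 and 117 FPKM in the WT libraries of day 2, and with its pseudogene rows 1036, 1114 and 1193 FPKM. The ratio of the highest to the lowest library fell to 1.15 with those rows, against 4.10 without them. For Rps12, a small subunit gene, in WT cells at day 0 it was 1.00 with them and 1.80 without them. With the pseudogene rows added Rps2 was lower in KO cells at day 0 (-2.03, SE 0.05) and at day 2 (-0.54), and Rpl17 was higher in KO cells at day 2 (0.43, SE 0.06, adjusted p = 1.52e-05). Rpl12 kept its ratio of 15.9, and for Rpl7a the ratio in WT cells at day 2 was 1.86 with them and 2.04 without them, while in WT cells at day 0 it was higher with them, at 1.71, than without them, at 1.204.

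Counting each member with its pseudogene rows, 1 member was higher and 68 lower in KO cells at day 0, and 34 were higher and 17 lower at day 2. In the KO response 68 were higher and 1 lower, and in the WT response 2 were higher and 56 lower. In the fit without added rows, 38.3% of all genes were higher and 44.2% lower at day 0. At day 2 these shares were 40.8% and 40.6%. They were 33.9% higher and 38.8% lower in the KO response, and 34.2% higher and 46.5% lower in the WT response. Among the 55 members with at most 10% of their signal in pseudogene rows, 49 were lower and 1 higher at day 0, with a median of -0.57. The 20 members above 10% gave 17 lower and none higher, with a median of -0.62.

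**Figure D5:**
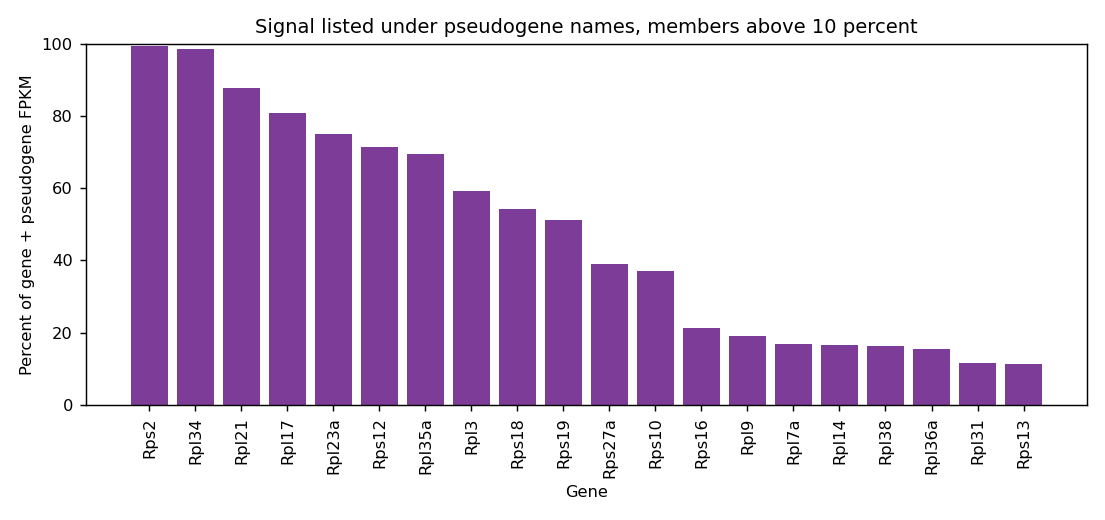
Percent of the combined FPKM of a gene and its named pseudogene rows that was listed under the pseudogenes, for the 20 members above 10%. It ranges up to 99.5% for Rps2, and 10 members lie above 50%.

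Genes that act with the ribosomal proteins were counted from lists chosen with earlier results of these data known. The 7 tested ribosomal protein genes whose symbols the rule leaves out, such as Rpsa and Fau, were all lower in KO cells at day 0, with a median of -0.56 against -0.06 over all genes, and all higher at day 2 than at day 0 in KO cells. Rpsa, of the small subunit, was at 1126 ± 8.86 FPKM in KO and 2207 ± 61.3 FPKM in WT cells at day 0 (SD, n = 3). Of 20 other messages with the TOP motif, 16 were lower and 3 higher at day 0, beside 44.2% lower and 38.3% higher of all genes. In KO cells 19 of these messages rose from day 0 to day 2, beside 33.9% of all genes. Hnrnpa1, an RNA-binding splicing factor and the gene of this list with the smallest adjusted p, was at 155 ± 1.95 FPKM in KO and 285 ± 3.40 FPKM in WT cells at day 2, and at 98.9 ± 1.81 FPKM in KO and 445 ± 10.8 FPKM in WT cells at day 0. Eef1a1, the elongation factor that delivers aminoacyl-tRNA, picked after its values were seen, was at 7030 ± 48.9 FPKM in KO and 5201 ± 55.5 FPKM in WT cells at day 2, and at 4857 ± 28.98 FPKM in KO and 6508 ± 77.6 FPKM in WT cells at day 0. Like the members, this list was lower at day 0 in most genes and split at day 2, with 10 higher and 7 lower.

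Genes of ribosome assembly and ribosomal RNA synthesis were lower in KO cells at both days. Of 76 assembly factors 69 were lower and 2 higher at day 0 (median -1.01), and 65 lower and 1 higher at day 2 (median -0.63, against 0.00 over all genes). Without the 4 tested genes of the list named Rrp the counts were 69 lower and 1 higher at day 0. Ncl, the nucleolar protein nucleolin, was at 277 ± 4.91 FPKM in KO and 429 ± 11.3 FPKM in WT cells at day 2, and at 176 ± 1.23 FPKM in KO and 525 ± 14.3 FPKM in WT cells at day 0. Of 19 genes of RNA polymerase I and its factors 17 were lower and 1 higher at day 0, and 13 lower and 3 higher at day 2. Polr1b, a core subunit of the polymerase, was at 11.3 ± 1.02 FPKM in KO and 34.4 ± 1.19 FPKM in WT cells at day 0. The calls of both lists at day 2 were mostly on the lower side, while the members had 30 higher and 17 lower, and this difference was not tested. Over all genes 40.8% were higher and 40.6% lower at day 2. The regulators of ribosomal protein synthesis had 9 higher and 9 lower of 20 at day 0, close to the 38.3% higher and 44.2% lower of all genes. Myc, the transcription factor that drives ribosome synthesis, was at 67.4 ± 0.56 FPKM in KO and 169 ± 6.39 FPKM in WT cells at day 2, and at 10.7 ± 0.37 FPKM in KO and 53.7 ± 0.58 FPKM in WT cells at day 0. Of the 6 genes of the p53 list 5 were higher and 1, Trp53, lower in KO cells at day 0, with Cdkn1a, the cell cycle inhibitor p21, at 319 ± 4.92 FPKM in KO and 74.5 ± 1.67 FPKM in WT cells. At day 2 this list was split. Sesn1, Mdm4 and Trp53 were higher and Mdm2 and Sesn2 lower in KO cells, and Cdkn1a did not pass (-0.05, adjusted p = 0.132, limma).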

How the data were processed

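Total RNA of 12 libraries was sequenced after a NEBNext Ultra library preparation, per the labels' protocols. The deposited table holds FPKM values that the authors computed. The submitters' processing notes list TopHat2 2.0.12, Bowtie2 2.2.3 and HTSeq 0.6.1 among their tools, and the build mm10, without the role of each. No annotation or strand setting is named there. Identifiers were matched to symbols for 51633 of 52505 rows. FPKM values were whole multiples of a step per gene (tolerance 0.001 of a read) in all 30916 genes above 0, which gave the reads.

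A mean for each of 4 groups was fitted to log2(FPKM + 1) in 12961 genes (minimum mean 1 FPKM) with limma 3.58.1 in R 4.3.3 (variance trend, 8 residual degrees of freedom). Tests were 2-sided, with Benjamini-Hochberg adjustment over all genes and a threshold of 0.05. The fit was tested on simulated data. No replicate block was used. Members, gene lists and the rule for named genes were chosen with earlier results of these data known. The rule names the 4 largest rises and falls past the threshold in each comparison, the 5 highest and lowest levels and 20 genes with set roles, and 1 member it names is not reported here. Alternatives were other pseudocounts, filters and scalings, no variance trend, fewer libraries, a block, each library left out, and voom with TMM on the reads. Added after seeing the data were sums with named pseudogene rows and totals without Rpl12.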

Additional observations from a re-analysis of the deposited data

Results flagged for a closer look

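In 67 members the change between day 2 and day 0 differed between KO and WT cells by the interaction test of the limma fit (adjusted p under 0.05). Of all 12961 genes tested 73.8% had such a call. The named members with the most extreme interaction values were Rps27a at 1.47, Rplp0 at 1.07, Rpl27a at 1.06 and Rpl7a at 0.98 on the log2 scale, each more positive in KO than in WT cells. Rpl9 was the member with a called negative value, at -0.13, and the omission of any of 5 libraries raised its adjusted p to between 0.0603 and 0.0719. With its pseudogene rows the Rpl9 interaction was -0.068 (adjusted p = 0.214). Among these members, Rps27a and Rpl7a had libraries that differed widely within groups, and with pseudogene rows the Rps27a interaction was 0.76.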

How the results depend on the processing

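The median change over the members kept its sign in every setting, and moved beyond the spread between libraries in these. At day 0 it was -0.47 with TPM scaling and -0.30 with quantile normalization. At day 2 it was 0.0067 without the third KO library of that day. It was 0.26 in the KO response and 0.36 in the interaction with quantile normalization, and in the WT response -0.15 with median-of-ratios scaling and -0.17 with voom. The summed level at day 0 changed by -23.9% with TPM and -19.9% with quantile normalization, and at day 2 by 10.97% with TPM and 0.97% with quantile normalization. In KO cells it changed by 25.5% (TPM), 34.5% (median of ratios) and 14.1% (quantile), and in WT cells by -9.06% (median of ratios) and -9.53% (quantile). Quantile normalization moved the median of all genes in the WT response by 0.12. The cause of these shifts was not tested.

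Leaving out each library in turn gave medians of -0.58 to -0.57 at day 0, 0.0067 to 0.088 at day 2, 0.33 to 0.40 in the KO response, -0.25 to -0.22 in the WT response and 0.57 to 0.66 in the interaction, with 64 to 67 members lower at day 0 and 28 to 32 higher and 12 to 20 lower at day 2.

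With a replicate block, 65 members were lower and 1 higher at day 0, 30 higher and 16 lower at day 2, 67 higher and 1 lower in the KO response, 52 lower and 2 higher in the WT response, and 65 higher and 1 lower in the interaction, where Rps27 passed with the block (adjusted p = 0.0226). In the WT response the block ended the calls of Rps27a (adjusted p = 0.0714) and Rpl27 (adjusted p = 0.0511). The labels do not say that a number pairs libraries, and same-numbered libraries deviated from their group means with correlations of -0.055 to 0.087 across genes.

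Changes of sign among named members were Rpl34 at day 2 (0.017) and Rpl21 in the WT response (-0.12) with pseudogene rows, and, with quantile normalization, Rpl5 at day 2 (0.12), Rps4x (-0.023) and Rps15 (-0.035) in the KO response, and Rpl11 (0.12) and Rps6 (0.022) in the WT response.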

Other observations

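Mitochondrial ribosomal protein genes encode proteins of the ribosome of the organelle. Of 77 tested genes 64 rose and 7 fell in WT cells from day 0 to day 2, with a median of 0.52, while the cytosolic members had 3 higher and 53 lower. In KO cells 37 rose and 17 fell, with a median of 0.11. They were lower in KO cells at both days, with 74 lower and 2 higher at day 2 (median -0.89) and 68 lower and 2 higher at day 0 (median -0.49). Among all genes 34.2% rose and 46.5% fell in WT cells, and 33.9% rose and 38.8% fell in KO cells. The share of all genes lower in KO cells was 40.6% at day 2 and 44.2% at day 0. The difference between the mitochondrial and the cytosolic list was not tested.

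Small nucleolar RNAs guide the modification of ribosomal RNA. Of 9 tested host genes of these RNAs 7 rose and none fell in KO cells from day 0 to day 2 (median 0.81). In WT cells 4 rose and 2 fell (median 0.03). The shares of all genes were 33.9% rising and 38.8% falling in KO cells, and 34.2% and 46.5% in WT cells. Snhg5 was at 166 ± 4.55 FPKM in KO and 70.5 ± 3.07 FPKM in WT cells at day 2, and at 30.1 ± 0.99 FPKM in KO and 74.3 ± 1.21 FPKM in WT cells at day 0 (SD, n = 3).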
